A study of Mus musculus with 4 samples.

Results

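The genes described here are the 8 core members of the Hedgehog signalling pathway named Dhh, Ptch1, Smo, Sufu, Gli1, Gli2, Gli3 and Hhip, taken by symbol from a table of 53465 mouse genes. All 8 were found once in the table and all 8 passed the filter on low counts, which left 21822 genes to be tested. RNA was sequenced from whole testes of mice at postnatal day 18, with 2 libraries from wild-type controls and 2 from Sympk cKO mice, in which Stra8-Cre removes Sympk. Stra8-Cre acts in male germ cells before meiosis, so the deletion is directed at germ cells and not at the somatic cells that make and receive Hedgehog ligand. All mice were on a C57BL/6-ICR mixed background, and the labels do not say how many animals stand behind a library. The study concerns Sympk, which encodes a scaffold of the mRNA 3' end cleavage complex, and its role in meiosis.

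Hedgehog ligands are secreted proteins that bind Patched receptors. Without ligand, PTCH1 holds the membrane protein SMO inactive, and SUFU binds the GLI transcription factors in the cytoplasm. With ligand, SMO enters the primary cilium and GLI proteins switch on target genes, among them Gli1, Ptch1 and Hhip, so that the RNA of these targets is commonly read as a measure of pathway output. In the testis Sertoli cells secrete Desert hedgehog, the product of Dhh, and cells of the Leydig and peritubular myoid lineages carry the receptors. Mice without Dhh have defects of both lineages and of the tubule wall.

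The 250 bases before the RefSeq start (GRCm38.p6) are shown for the ligand gene and for 2 target genes, because they stand for the ligand, its receptor and a feedback inhibitor. CpG dinucleotides are in capitals. Dhh lies at chr15:98898541-98898790, Ptch1 at chr13:63565736-63565985 and Hhip at chr8:80058009-80058258, each on the minus strand and written 5′ to 3′.
Dhh: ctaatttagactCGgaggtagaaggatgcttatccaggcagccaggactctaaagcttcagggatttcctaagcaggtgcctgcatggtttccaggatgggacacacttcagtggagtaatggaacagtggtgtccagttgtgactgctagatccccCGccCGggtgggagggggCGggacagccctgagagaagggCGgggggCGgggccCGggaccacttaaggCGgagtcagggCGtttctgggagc
Ptch1: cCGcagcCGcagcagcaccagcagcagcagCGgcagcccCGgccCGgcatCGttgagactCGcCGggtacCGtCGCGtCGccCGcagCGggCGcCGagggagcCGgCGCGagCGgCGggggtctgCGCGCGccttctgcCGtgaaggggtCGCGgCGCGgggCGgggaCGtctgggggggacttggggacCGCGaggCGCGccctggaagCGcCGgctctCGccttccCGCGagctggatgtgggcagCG
Hhip: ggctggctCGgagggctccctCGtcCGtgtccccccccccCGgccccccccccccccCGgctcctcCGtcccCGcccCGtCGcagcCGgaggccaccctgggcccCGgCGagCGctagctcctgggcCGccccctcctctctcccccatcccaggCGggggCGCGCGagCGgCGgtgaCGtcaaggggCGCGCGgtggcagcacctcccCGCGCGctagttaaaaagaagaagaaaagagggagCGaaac

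The Ptch1 stretch lies inside the gene, which reaches to 63573598 on the minus strand, so a start further upstream is not covered. It held 41 CpG dinucleotides and the Hhip stretch 28, against a median of 6 over all 32851 promoter windows. Dhh held 9. As many CpGs as in Ptch1 were found in 1.09% of windows, as many as in Hhip in 7.61% and as many as in Dhh in 40.3%. The GLI binding sequence TGGGTGGTC was searched on both strands from 250 bases before to 50 after the start. No exact match was found in the 7 member windows that the RefSeq table holds (Gli1 is the member without one), nor a match with 1 base different. Of all windows, 0.253% held an exact match and 6.74% one with at most 1 base different.

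Counts per library totalled 32730868 to 41584389. Levels are given as CPM, counts per 1000000 after scaling by TMM (trimmed mean of M values, which sets most genes to no change), and 1 CPM stood for 35.6 to 42.8 counts. Sympk itself stood at 225 and 192 CPM in wild type and 171 and 173 CPM in cKO (log2 fold change -0.28, adjusted p = 0.132), and was not called. Changes between genotypes were widespread: 63.4% of tested genes were called at an adjusted p under 0.05, 29.2% higher and 34.3% lower in cKO (edgeR, quasi-likelihood test, p adjusted by Benjamini-Hochberg over all genes). The tissue label held, since the 16 Sertoli markers summed to 3242 and 3526 CPM in wild type and 7916 and 7068 CPM in cKO. The 7 spermatocyte markers summed to 5871 and 5894 CPM in wild type and to 159 and 225 CPM in cKO. Skeletal muscle markers summed to 2.24 CPM in wild-type replicate 1, 177 CPM in wild-type replicate 2, and 617 and 353 CPM in the cKO libraries, and mitochondrially encoded genes took 4.01% to 4.93% of counts in wild type and 8.81% to 10.2% in cKO. The part of either in the results below was not tested. In whole tissue, fewer cells of a type and less RNA per cell cannot be told apart.

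On the TMM scale, 5 of the 8 Hedgehog genes were higher in cKO testes (Dhh, Ptch1, Smo, Gli1 and Hhip). Of the rest, 1 was lower (Sufu) and 2 did not pass the test (Gli2 and Gli3). Over all genes, 29.2% were higher and 34.3% lower on the TMM scale. With libraries scaled to Sertoli or to interstitial markers, by contrast, 0 of the 8 were higher. On those scales 1.49% and 1.34% of all genes were higher, so 0 of 8 is near the background share. Lower there were 1 of the 8 on the Sertoli scale and 3 on the interstitial scale, against 64.7% and 66.6% of all genes. The ligand, its receptor, the signal transducer and 3 target genes (Ptch1 being both receptor and target) moved the same way on the TMM scale, by 2.40-fold to 3.42-fold. The median log2 fold change of the 8 was 1.29, against -0.023 over all genes tested. The 2 groups did not overlap for any of the 8 genes, which was also true of 83.8% of all genes.

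**Figure D1:**
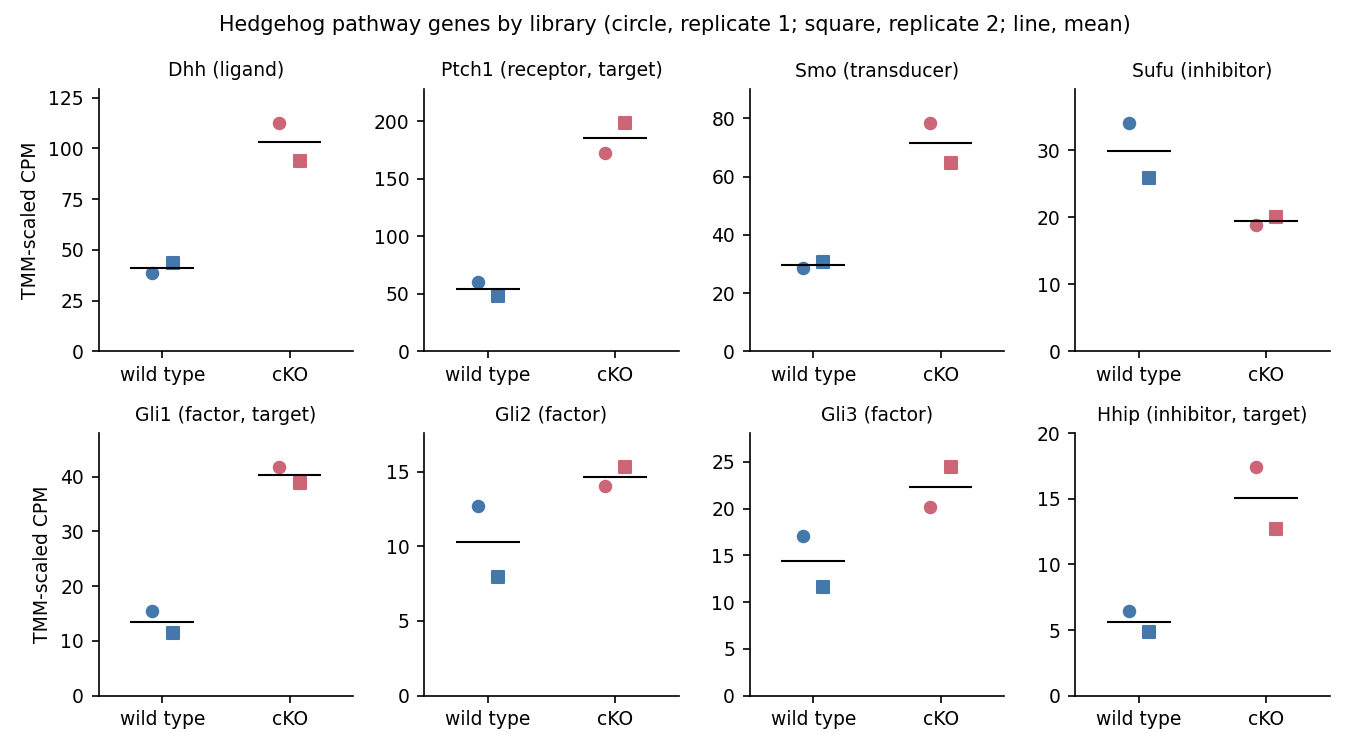
TMM-scaled CPM of each Hedgehog gene in the 4 libraries, each panel with its own axis from 0. Blue marks wild type, red marks cKO, and black lines are means of 2 libraries. The cKO values lie above wild type in 7 panels and below it for Sufu on the TMM scale. On the Sertoli and interstitial scales Smo, Gli2 and Gli3 turn below 0, and Dhh does so on the interstitial scale.

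Dhh encodes the ligand. Wild-type libraries held 38.8 and 43.8 CPM of Dhh RNA, and cKO libraries 112 and 93.7 CPM. Both cKO libraries were well above either wild-type one. The mean went from 41.3 ± 3.49 to 103 ± 13.2 CPM (SD, n = 2), a log2 fold change of 1.32 on the TMM scale (SE 0.156, adjusted p = 7.39e-04, edgeR) that turned to -0.043 on the interstitial scale. The gene (ENSMUSG00000023000) lies on the minus strand of chromosome 15 from 98893031 to 98898540 in the table (GRCm38). It overlaps Rhebl1 on the same strand, which had 2.11 to 5.58 CPM, and Gm49442 on the opposite strand, which was not analysed here. Gli1 overlaps Arhgap9 on the opposite strand, which had 1.83 to 3.18 CPM.

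Ptch1 encodes the receptor and is also a target gene. It had 60.4 and 47.9 CPM in wild type and 172 and 198 CPM in cKO. This was the largest fold change among the 8 genes on the TMM scale, whereas on the Sertoli and interstitial scales that of Sufu was largest and Ptch1 did not pass (0.48, adjusted p = 0.0863, and 0.43, adjusted p = 0.0815). The means were 54.2 ± 8.84 and 185 ± 18.2 CPM (SD, n = 2), a log2 fold change of 1.77 (SE 0.170, adjusted p = 3.37e-04, edgeR). Of all genes tested, 95.2% had a lower value. The gene (ENSMUSG00000021466) spans 63508328 to 63573598 on the minus strand of chromosome 13.

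Smo encodes the membrane protein that PTCH1 restrains. It stood at 28.8 and 30.8 CPM in wild type and at 78.3 and 64.8 CPM in cKO. The rise was close in size to that of the ligand gene, with a log2 fold change of 1.26 on the TMM scale (SE 0.156, adjusted p = 8.72e-04, edgeR) that turned to -0.038 on the Sertoli scale and -0.10 on the interstitial scale. Smo (ENSMUSG00000001761) is a plus-strand gene of chromosome 6 (29735503 to 29761365).

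Hhip encodes a membrane protein that binds and traps Hedgehog ligands, and it is a feedback target. It had 6.42 and 4.86 CPM in wild type and 17.4 and 12.7 CPM in cKO. This gave a log2 fold change of 1.42 (SE 0.248, adjusted p = 0.00337, edgeR). The gene (ENSMUSG00000064325) lies on the minus strand of chromosome 8 from 79965851 to 80058006.

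The 3 GLI transcription factor genes did not rise alike. Gli1, an activator whose own transcription depends on the pathway, had 15.4 and 11.5 CPM in wild type and 41.7 and 38.9 CPM in cKO. This gave a log2 fold change of 1.58 (SE 0.192, adjusted p = 8.13e-04, edgeR). Gli2, which encodes the main activator acting upstream of Gli1, had 12.7 and 7.93 CPM in wild type and 14.0 and 15.3 CPM in cKO. The higher wild-type library came close to the cKO ones, and Gli2 was not called at a log2 fold change of 0.51 (SE 0.255, adjusted p = 0.126, edgeR). Gli3, whose product is processed to a repressor when no ligand is present, had 17.1 and 11.6 CPM in wild type and 20.1 and 24.4 CPM in cKO, with a log2 fold change of 0.63 (SE 0.232) that did not pass either (adjusted p = 0.0521, edgeR). Both passed without wild-type replicate 1, Gli2 at 0.88 (adjusted p = 0.0175) and Gli3 at 0.93 (adjusted p = 0.0189). With library totals in place of TMM both passed on all 4 libraries, Gli2 at 0.74 (adjusted p = 0.0441) and Gli3 at 0.86 (adjusted p = 0.0202), whereas on the Sertoli and interstitial scales both stood below 0. Without wild-type replicate 2 the values were 0.19 for Gli2 and 0.36 for Gli3. Gli3 without cKO replicate 2 stood at 0.50 and without cKO replicate 1 at 0.77, and Gli2 stayed uncalled without either. Gli1 (ENSMUSG00000025407) lies on chromosome 10 (127329882 to 127341974, minus strand), Gli2 (ENSMUSG00000048402) on chromosome 1 (118834132 to 119053619, minus strand), and Gli3 (ENSMUSG00000021318) on chromosome 13 (15463235 to 15730026, plus strand).

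Sufu encodes the inhibitor that holds GLI proteins, and it was the member that fell. Its level was 34.0 and 25.9 CPM in wild type and 18.9 and 20.04 CPM in cKO. The means were 29.9 ± 5.76 and 19.5 ± 0.815 CPM (SD, n = 2), and the log2 fold change was -0.62 (SE 0.184, adjusted p = 0.0257, edgeR). The fall no longer passed when wild-type replicate 1 was left out (-0.42, adjusted p = 0.0738), nor without cKO replicate 1 (-0.58, adjusted p = 0.125), without cKO replicate 2 (-0.66, adjusted p = 0.0841) and with library totals in place of TMM (-0.39, adjusted p = 0.107). It held when wild-type replicate 2 was left out (-0.83, adjusted p = 0.0105). Sufu (ENSMUSG00000025231) is a plus-strand gene of chromosome 19 (46396896 to 46488804), with no other annotated gene over it.

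Ratios between these genes within a library do not depend on how libraries are scaled. They still depend on the mix of cells in the tissue. Spermatocyte markers fell in 7 of 7 cases on the TMM scale, while most Sertoli and interstitial markers rose. The part of that mix in these ratios was not tested. The FPKM ratio (FPKM being fragments per kilobase of gene length, scaled to library size) of Gli1 to Gli2 was 1.49 and 1.78 in wild type and 3.65 and 3.13 in cKO. That of Gli1 to Gli3 was 1.57 and 1.71 in wild type and 3.60 and 2.77 in cKO. The ratio of Gli1 to Sufu moved most among the pairs plotted, from 0.662 and 0.648 to 3.22 and 2.84. For these 3 pairs both cKO libraries lay above both wild-type ones. Against its receptor gene, Gli1 kept a ratio of 1.10 and 1.04 in wild type and 1.05 and 0.850 in cKO, and these values overlap. Ptch1 over Dhh, target over ligand, was 0.142 and 0.100 in wild type and 0.140 and 0.194 in cKO, which also overlap. The size of each ratio depends on the gene lengths behind FPKM, which were the same in all 4 libraries. Gli2 over Gli3 was 1.05 and 0.963 in wild type and 0.985 and 0.886 in cKO. Hhip over Ptch1 went from 0.277 and 0.265 in wild type to 0.264 and 0.168 in cKO. Smo over Ptch1 went from 1.96 and 2.64 to 1.87 and 1.34. For both, cKO lay below wild type without overlap, though cKO replicate 1 came close to wild type. The pairs were chosen after the values were seen, and with 2 libraries against 2 an exact permutation test cannot go below p = 0.333.

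**Figure D2:**
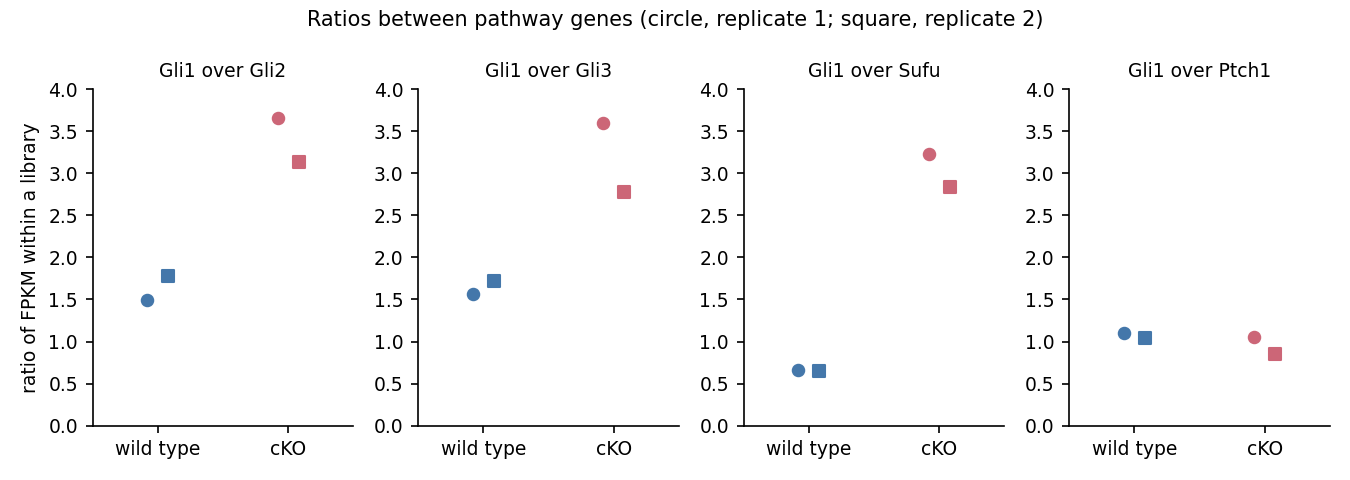
Ratio of the FPKM of Gli1 to that of Gli2, Gli3, Sufu and Ptch1 within each library, on a shared axis from 0. Blue marks wild type and red cKO, 1 point per library. The cKO points lie above wild type in the first 3 panels, by the widest margin over Sufu, and overlap it in the panel for Ptch1. The part of the mix of cells in these ratios was not tested.

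Levels between genes were compared per length, on the deposited FPKM. Dhh was the most abundant of the 8 RNAs in every library, at 15.0 and 17.4 FPKM in wild type and 49.7 and 44.2 in cKO. Smo came next in every library, at 4.17 and 4.62 FPKM in wild type and 13.0 and 11.5 in cKO. In wild type Sufu followed at 3.56 and 2.80 FPKM, ahead of Gli1 (2.35 and 1.81) and Ptch1 (2.13 and 1.75), which overlap each other. Gli2 (1.57 and 1.02) and Gli3 (1.501 and 1.06) overlap as well, and Hhip was lowest at 0.591 and 0.463 FPKM. In cKO testes Ptch1 (6.97 and 8.56 FPKM) and Gli1 (7.31 and 7.28) stood above Sufu (2.27 and 2.57), and Sufu overlapped Gli3 (2.03 and 2.63) and Gli2 (2.0004 and 2.33). Hhip stayed lowest at 1.84 and 1.44 FPKM. The order depends on the length used: the FPKM of Ptch1 rests on 25815 bp, while its GENCODE M21 exons cover 14185 bp. With FPKM rescaled to those exons Ptch1 stood at 3.88 and 3.18 in wild type, overlapping Sufu (4.03 and 3.17), and at 12.7 and 15.6 in cKO, overlapping Smo (14.6 and 12.9). The FPKM of Dhh rests on 2363 bp, while its exons cover 4399 bp. Rescaled likewise, Dhh stood at 8.04 and 9.37 in wild type and 26.7 and 23.8 in cKO. It was still highest in every library, but nearer to Smo (4.66 and 5.16 in wild type).

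Somatic marker genes were higher over the same comparison, in which 29.2% of all genes were higher and 34.3% lower on the TMM scale. Of 16 Sertoli markers 15 rose and 0 fell on the TMM scale, with a median log2 fold change of 1.23. Among 11 markers of the interstitial stroma, from which Leydig cells arise, 10 rose and the median was 1.45. Of 9 Leydig markers 5 rose with a median of 0.97, and of 7 peritubular myoid markers 4 rose with a median of 0.66. None of the markers of these 4 lists was at 0 in any library. The interstitial markers summed to 2030 and 1636 CPM in wild type and 5282 and 4990 CPM in cKO, the Leydig markers to 363 and 531 against 950 and 984 CPM, and the peritubular ones to 593 and 573 against 1115 and 957 CPM. The rise was not particular to these cells. Of endothelial markers 6 of 6 rose (median 1.06) and of macrophage markers 5 of 5 (median 1.34). Of 5 spermatogonial markers 3 rose and 1 fell (median 0.61). Schwann cells also make Dhh. Their 5 markers summed to 16.5 and 19.2 CPM in wild type and 17.1 and 14.4 CPM in cKO, and 1 of the 4 tested rose and 1 fell. Foxd3 was at 0 counts in wild-type replicate 1 and was not tested.

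Set against the geometric mean of Sertoli markers within each library, Dhh did not differ beyond its spread. The log2 ratio of Dhh to the geometric mean of the 16 markers was -0.73 and -0.67 in wild type and -0.63 and -0.74 in cKO, a difference of 0.018 (exact permutation test, two-sided, p = 1). The values of the 2 groups overlap. With the sum of the markers, which the most abundant ones dominate, the ratio was -6.38 and -6.33 in wild type and -6.14 and -6.24 in cKO, a difference of 0.17 without overlap (exact permutation p = 0.333). Over the 11 interstitial markers, Smo was at -0.90 and -0.76 in wild type and -0.87 and -0.98 in cKO, and Hhip at -3.07 and -3.42 in wild type and -3.04 and -3.32 in cKO. Both overlap between groups. Ptch1 was at 0.17 and -0.12 in wild type and 0.26 and 0.64 in cKO, and Gli1 at -1.80 and -2.18 in wild type and -1.78 and -1.71 in cKO. These do not overlap, though for Gli1 wild-type replicate 1 and cKO replicate 1 lay close together.

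Gli2, Gli3 and Sufu were lower in cKO by this measure, but so were most genes on the matching scale. With libraries scaled to the interstitial markers, 66.6% of all genes were lower and the median log2 fold change was -1.37. On that scale Gli2 (-0.84) and Gli3 (-0.71) stood above the median of all genes and Sufu (-1.97) below it. Over the interstitial markers Gli2 was at -2.08 and -2.71 in wild type and -3.35 and -3.06 in cKO. Gli3 was at -1.65 and -2.16 in wild type and -2.83 and -2.38 in cKO, and Sufu at -0.66 and -1.01 in wild type and -2.93 and -2.67 in cKO. The differences were -0.81, -0.70 and -1.96 (exact permutation test, p = 0.333 each, the smallest this design allows). The measure depends on the list. Over the 7 peritubular markers the difference was 0.85 for Ptch1, 0.67 for Gli1, 0.48 for Hhip, 0.32 for Smo and -1.54 for Sufu, each without overlap between groups. The differences of -0.39 for Gli2 and -0.28 for Gli3 over that list came with overlap. Over the 9 Leydig markers, where wild-type libraries lay far apart, the difference was 0.64 for Ptch1, -1.75 for Sufu and -0.59 for Gli2 without overlap. It was 0.46 for Gli1, 0.27 for Hhip, 0.12 for Smo and -0.49 for Gli3 with overlap. For Gli2 the margin was narrow, with wild-type replicate 2 at -2.23 and cKO replicate 2 at -2.25. With the sum of the Leydig markers Gli2 overlapped, at -6.06 and -6.01 in these 2 libraries.

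Scaling whole libraries to the markers and refitting used the same marker geometric means as the ratios. Values close to the ratios of the same gene and list therefore follow by construction and are no second test. On the Sertoli scale the log2 fold changes were 0.019 for Dhh, 0.48 for Ptch1, -0.038 for Smo, 0.28 for Gli1 and 0.10 for Hhip, and none of these passed. Sufu stood at -1.92 (SE 0.226, adjusted p = 3.88e-04, edgeR). On the interstitial scale Gli2 was lower at -0.84 (SE 0.269, adjusted p = 0.0267) and Gli3 at -0.71 (SE 0.258, adjusted p = 0.0431), whereas on the Sertoli scale neither passed (-0.80 and -0.67). The median of all genes moved from -0.023 on the TMM scale to -1.32 on the Sertoli scale, -1.37 on the interstitial scale and 0.20 with library totals. Rescaling whole libraries shifts all genes nearly alike, so values relative to that median stay nearly fixed by construction and say nothing of stability. Relative to it, Dhh stood at 1.34, 1.33, 1.33 and 1.34 on the 4 scales in that order, Ptch1 at 1.80, 1.79, 1.80 and 1.80, and Sufu at -0.60, -0.61, -0.60 and -0.59.

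**Figure D3:**
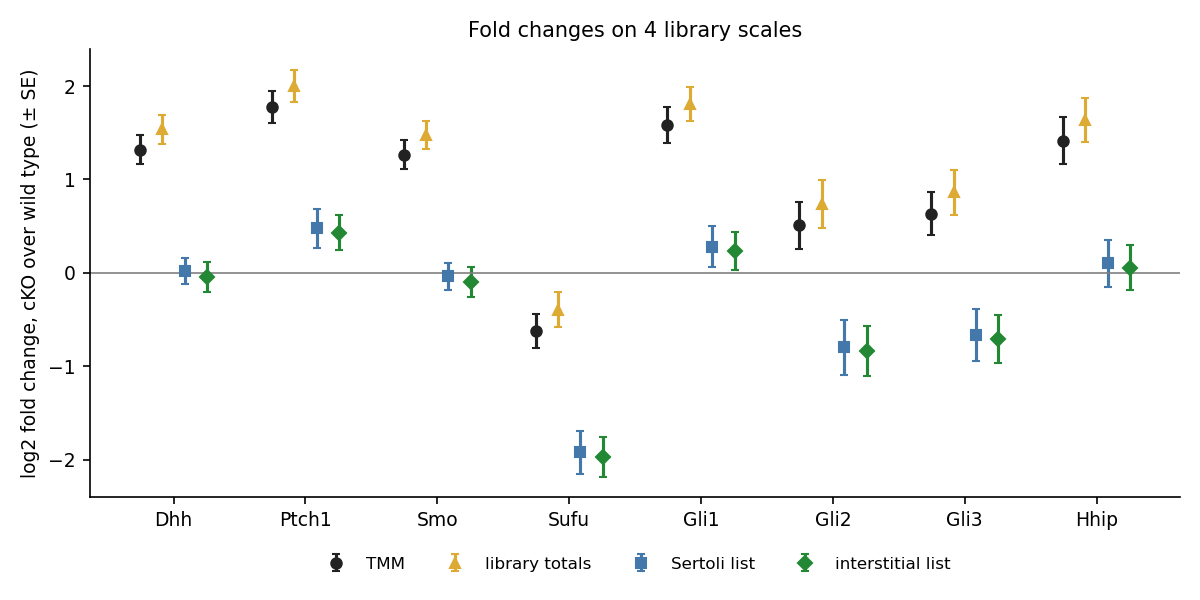
Log2 fold change of each Hedgehog gene, cKO over wild type, with libraries scaled by TMM, by total count, to Sertoli markers or to interstitial markers. Points are estimates of the edgeR fit of 2 against 2 libraries and bars their SE. On the marker scales Dhh, Smo and Hhip lie near 0, Ptch1 and Gli1 somewhat above it, Gli2 and Gli3 below it, and Sufu near -2 (-1.92 and -1.97).

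The wider pathway was described with 56 further genes in 5 lists, of which 54 were tested. Of these, 18 were higher, 19 lower and 17 not called, with a median log2 fold change of 0.22. Shares of 33.3% higher and 35.2% lower compare with 29.2% and 34.3% over all genes. The lists differed, with co-receptors mostly higher and cilium genes lower throughout.

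Dhh was the Hedgehog ligand gene with appreciable RNA. Shh, the ligand of limb and neural tube, had 28 and 13 counts in wild type and 3 and 5 in cKO, and Ihh, the ligand of cartilage, had 19 and 19 counts in wild type and 9 and 4 in cKO. Both were called lower, Shh by -2.41 (SE 0.627, adjusted p = 0.0158) and Ihh by -1.65 (SE 0.496, adjusted p = 0.0267, edgeR). Shh no longer passed at -1.82 (adjusted p = 0.124) when wild-type replicate 1 was left out, nor at -1.99 (adjusted p = 0.103) when cKO replicate 1 was. Ihh no longer passed when any 1 library was left out (-2.20 to -1.28, adjusted p = 0.0703 to 0.183), with DESeq2 (-1.71, adjusted p = 0.141) or with the replicate number as a block (-1.69, adjusted p = 0.0631), at values near the main one but for the 2 fits without a cKO library. Hhat, the acyltransferase that adds palmitate to Hedgehog ligands, rose from 1.56 and 1.38 to 4.32 and 3.56 CPM, but did not pass on the Sertoli and interstitial scales (log2 fold changes of 0.12 and 0.065). Disp1, which encodes the transporter that releases lipid-bearing ligand, rose from 20.6 and 16.5 to 36.2 and 35.2 CPM (log2 fold change 0.95, SE 0.169), though on the Sertoli and interstitial scales it stood at -0.36 and -0.41. The other 4 genes of release were not called.

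Co-receptor genes were higher in 3 of 4 cases on the TMM scale, with a median of 1.145, against 29.2% of all genes. Cdon, which encodes a cell surface protein that binds ligand together with PTCH1, had 32.1 and 21.2 CPM in wild type and 70.5 and 71.2 CPM in cKO (log2 fold change 1.41, SE 0.217). Its relative Boc rose by 1.23 (SE 0.154) and the membrane-anchored Gas1 by 1.06 (SE 0.149). On the Sertoli and interstitial scales Cdon stood at 0.10 and 0.064, Boc at -0.073 and -0.12, and Gas1 at -0.24 and -0.29. Lrp2, which encodes megalin, was named after its values were seen. Lrp2 was not called at 0.89 (SE 0.323, adjusted p = 0.0513), but passed at 1.25 without wild-type replicate 1 (adjusted p = 0.0303), at 1.12 with library totals (adjusted p = 0.0259) and at 0.90 with limma-voom (adjusted p = 0.0489). It stood at 0.57 without wild-type replicate 2.

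Genes that relay the signal went both ways, with 9 of 25 higher (36%) and 7 lower (28%) on the TMM scale, near the shares of 29.2% and 34.3% over all genes. Evc2 and Evc, whose products join SMO at the base of the cilium, rose together on the TMM scale, while on the Sertoli and interstitial scales neither passed (Evc2 at 0.51 and 0.47, Evc at 0.27 and 0.22). Evc2 went from 13.1 and 8.52 to 39.6 and 36.6 CPM (log2 fold change 1.82, SE 0.235), and Evc from 5.86 and 4.92 to 15.9 and 16.1 CPM (1.57, SE 0.190). Efcab7 and Iqce, whose products tether that same pair of proteins in the cilium, fell. Efcab7 went from 44.2 CPM in both wild-type libraries to 4.39 and 3.97 CPM (-3.40, SE 0.166), and Iqce from 114 and 99.2 to 31.8 and 32.0 CPM (-1.74, SE 0.142). Ulk3, a kinase gene, rose by 1.32 (SE 0.227), although its value was 0.012 on the Sertoli scale and -0.029 on the interstitial one. Stk36, the mouse relative of the Drosophila Hedgehog kinase Fused, fell by -2.86 (SE 0.196), from 75.9 and 56.9 to 9.48 and 8.81 CPM. Whether Stk36 relays Hedgehog signal in this tissue was not tested. Nor was the part of the fall of spermatocyte markers in the falls of Efcab7, Iqce and Stk36.

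All 9 genes of the cilium list fell, with a median log2 fold change of -1.56, while 34.3% of all genes were lower on the TMM scale. Their products build or maintain cilia, in which SMO and GLI proteins are handled, and several are also used in sperm flagella. Ift172, of the transport trains that build cilia, went from 494 and 351 to 41.9 and 42.0 CPM (-3.33, SE 0.207). Ift122 went from 346 and 327 to 52.0 and 53.5 CPM (-2.67, SE 0.136) and the dynein motor gene Dync2h1 from 447 and 280 to 79.4 and 79.7 CPM (-2.19, SE 0.240). The summed level of the list was 2020 and 1670 CPM in wild type and 428 and 420 CPM in cKO. Beside it the spermatocyte markers fell in 7 of 7 cases with a median of -4.90, and their part in this result was not tested.

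Genes reported to respond to GLI in some tissues were called higher in 4 of 8 cases and lower in 1 on the TMM scale, with a median of 1.17. Over all genes the shares were 29.2% higher and 34.3% lower. Bcl2, an inhibitor of cell death, rose from 3.88 and 3.63 to 12.1 and 11.1 CPM (1.63, SE 0.197). Foxc2 rose from 1.95 and 2.53 to 7.66 and 5.86 CPM (1.59, SE 0.267) and the cyclin gene Ccnd2 from 50.7 and 55.7 to 188 and 129 CPM (1.58, SE 0.205). Foxf1, a forkhead gene named after its values were seen, was the other that rose, from 7.87 and 6.41 to 19.2 and 21.1 CPM. On the Sertoli scale Bcl2, Foxc2 and Ccnd2 stood at 0.33, 0.29 and 0.27 and did not pass. There 0 of the 8 were higher and 3 lower, against 1.49% and 64.7% of all genes. Jag2, a Notch ligand gene, fell by -0.60 (SE 0.173, adjusted p = 0.0228). Jag2 no longer passed at -0.46 (adjusted p = 0.0736) when wild-type replicate 1 was left out, at -0.48 (adjusted p = 0.149) when cKO replicate 1 was, or with library totals (-0.37, adjusted p = 0.118). Of the list, 2 genes had too few counts to test: Foxl1 had 0 counts in both wild-type libraries and 9 and 8 in cKO, and Foxf2 had 0 counts in wild type and 3 and 1 in cKO.

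**Figure D4:**
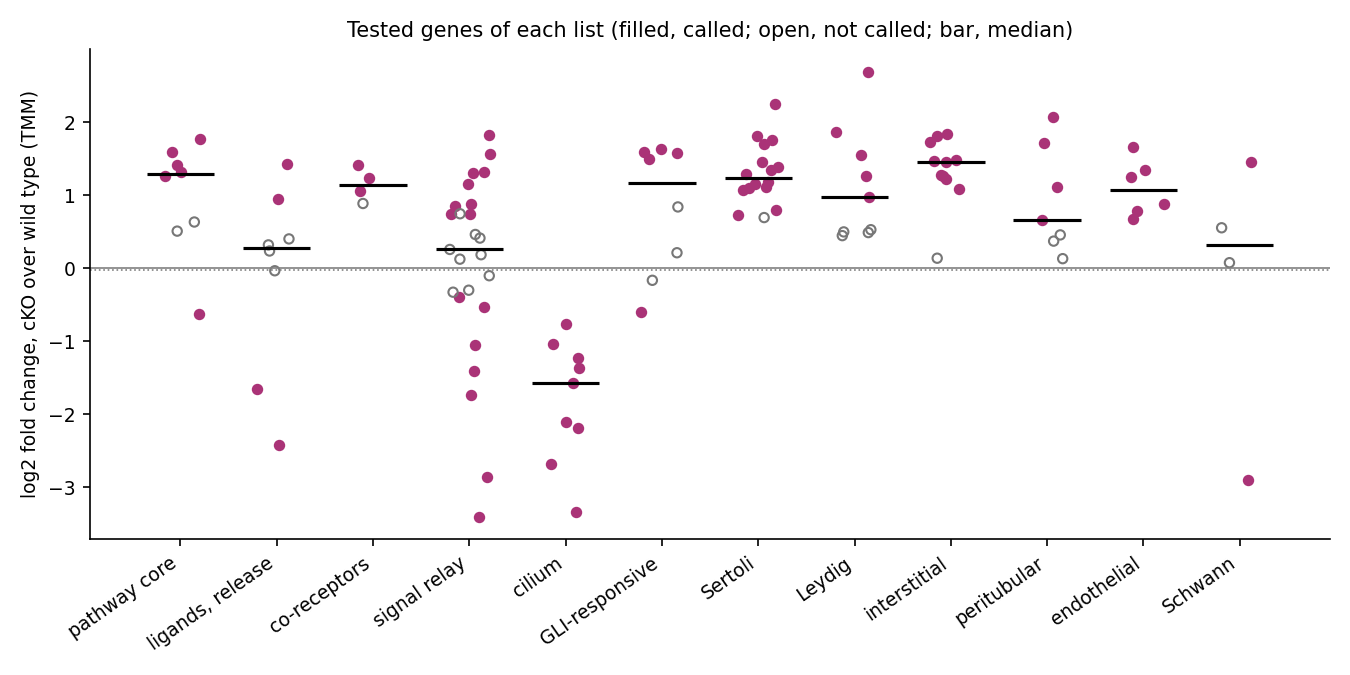
Log2 fold change on the TMM scale of every tested gene in the 8 core genes, the 5 wider pathway lists and 6 cell marker lists, with the position along the x axis within a list spread at random. Filled points were called at an adjusted p under 0.05, black bars are list medians and the dotted line is the median of all genes (-0.023). All cilium genes lie below 0, and most core, co-receptor, Sertoli and interstitial genes lie above 1 on this scale, while on the Sertoli scale the core median is -0.0096.

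The genes nearest to Dhh and Gli1 in their pattern over the 4 libraries were found by the distance between log2 CPM values centred on each gene's mean, among 8269 called genes with at least 5 CPM. Nearest to Dhh were Fshr, the follicle-stimulating hormone receptor gene of Sertoli cells (distance 0.0222, from 11.9 ± 1.01 to 29.96 ± 3.62 CPM), Nab1 (0.0295, from 72.2 ± 6.23 to 178 ± 19.6 CPM) and Morf4l2 (0.0412, from 141 ± 14.6 to 357 ± 49.9 CPM; SD, n = 2 for each). Nearest to Gli1 were the laminin gene Lamb2 (0.0525, from 226 ± 38.7 to 680 ± 27.2 CPM), the adenylyl cyclase gene Adcy9 (0.0535, from 19.6 ± 4.58 to 60.0 ± 2.90 CPM) and Ctif (0.0587, from 7.44 ± 1.46 to 22.9 ± 0.469 CPM). With 4 libraries in 2 groups, many genes share such a pattern.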

How the data were processed

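The authors deposited whole-number read counts per gene, with no normalization, and FPKM values (fragments per kilobase, scaled to library size), per the file headers. HISAT2 and the GRCm38 build are named in the submitters' processing notes. How reads were counted, with which strand setting and gene models, is not given in the sources used here. Each member's deposited count and FPKM implied 1 gene length in all 4 libraries. Without a known strand setting, reads of overlapping genes may have been exchanged. Total RNA went into paired-end TruSeq libraries, per the labels' protocols.

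Counts were filtered with filterByExpr, scaled with TMM and tested with edgeR 4.0.16 (R 4.3.3) by the quasi-likelihood test of genotype, two-sided, with Benjamini-Hochberg adjustment over 21822 genes and a threshold of 0.05. Groups were taken from the genotype label. No label says that libraries come from separate animals, so the spread that p-values rest on is that of these libraries and may be technical. Replicates differed far beyond counting noise (chi-square per gene 35.2 in wild type and 16.5 in cKO), so all were kept. A list's ratio used members with at least 10 counts in every library. The procedure was tested on simulated data with few changed genes, as many up as down. That setting cannot show how the scaling behaves where 63.4% of genes are called. Also run were DESeq2 1.42.0, a replicate block, limma-voom (limma 3.58.1), other scalings and filters, and each library left out, where the lone library was assumed to vary like the others. Coordinates are the table's; strands, exons and overlaps are from GENCODE M21 and promoters from RefSeq. The members and lists were chosen with earlier results of these data known. Named genes are the 8 members, up to 3 called genes per direction and wider list with the largest change, and the 3 nearest in pattern to Dhh and Gli1. Exceptions are said. A gene left out of the co-receptor list is not reported here.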

Additional observations from a re-analysis of the deposited data

How the results depend on the processing

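DESeq2, limma-voom, RLE size factors, a minimum mean of 5 CPM, no count filter at all and the replicate block each left all 8 Hedgehog genes on the same side of 0 and of the threshold. The replicate block gave Dhh 1.31, Ptch1 1.78, Smo 1.26, Sufu -0.61, Gli1 1.60, Gli2 0.54, Gli3 0.65 and Hhip 1.41, and among the genes of the wider lists that are named it ended the call of Ihh. Equal replicate numbers deviated in opposite directions (correlation over genes -0.106), and nothing in the labels shows that they pair libraries. The crossed pairing, chosen after seeing the data, gave 6 members higher and 1 lower, beside 6145 higher and 7267 lower of all 21822 genes tested. Library totals gave 7 members higher and 0 lower, with Gli2 at 0.74, Gli3 at 0.86 and Sufu at -0.39. Of all 21822 genes tested, 7651 were higher and 6423 lower with library totals, and their median moved up to 0.20. On the Sertoli scale 0 members were higher, with Dhh at 0.0187, Ptch1 at 0.48, Smo at -0.0379, Gli1 at 0.28, Gli2 at -0.80, Gli3 at -0.67 and Hhip at 0.10. The interstitial scale gave 0 higher and 3 lower, with Dhh at -0.0426, Ptch1 at 0.43, Smo at -0.10, Gli1 at 0.23, Gli2 at -0.84, Gli3 at -0.71 and Hhip at 0.0548. On the Sertoli and interstitial scales 0 of the wider pathway genes were higher and 35 lower on each, and over all genes 325 were higher and 14119 lower (64.7%) on the first, 293 and 14527 (66.6%) on the second. A minimum mean of 5 CPM gave 4608 higher and 4620 lower over all genes, with 13299 tested.

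Values below 0 after such scaling, in place of values above 0, were found for Disp1 (-0.36 Sertoli, -0.41 interstitial), Boc (-0.073 and -0.12), Gas1 (-0.24 and -0.29) and Lrp2 (-0.41 and -0.45), and on the interstitial scale for Ulk3 (-0.0294), Fshr (-0.0227), Nab1 (-0.0558) and Morf4l2 (-0.0187). Taking the sum in place of the geometric mean of the interstitial list turned the Hhip difference from 0.059 to -0.081, cut that of Gli1 from 0.24 to 0.10 and moved that of Smo from -0.097 to -0.24, and that of Ptch1 went from 0.43 to 0.29. Leaving out each library in turn gave 5 to 7 members higher and 0 to 1 lower, with Dhh from 1.19 to 1.45, Ptch1 from 1.60 to 1.95, Smo from 1.12 to 1.40, Hhip from 1.18 to 1.63, Gli1 from 1.37 to 1.81, Gli2 from 0.19 to 0.88, Gli3 from 0.36 to 0.93 and Sufu from -0.83 to -0.42. Over all genes it gave 4630 to 5798 higher and 6320 to 7089 lower. At the depth of these libraries Shh, Ihh, Foxl1 and Foxf2 rest on 28 counts or fewer per library, so changes in them are weakly resolved.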
